A study of Drosophila melanogaster with 2 samples.

Results

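Of the 6835 regions in the optimal list of an Eyeless chromatin immunoprecipitation sequencing (ChIP-seq) study in Drosophila melanogaster, 1539 (22.5%, 95% exact interval 21.5 to 23.5) had their summit at the promoter of a single gene. A region was taken when its summit, the point of highest enrichment, lay within 500 bp of a protein-coding transcription start site (TSS) on arms X, 2L, 2R, 3L, 3R or 4. Summits within 500 bp of a head-to-head pair of protein-coding TSSs at most 1000 bp apart were left out. That set aside 1134 summits at such divergent promoters, and the other 4162 optimal summits lay farther than 500 bp from every protein-coding TSS. Of the 1539, 1495 (97.1%) had 1 protein-coding gene with a TSS within 500 bp, 43 had 2 and 1 had 3, a split that the removal of head-to-head pairs largely fixed. The summits belonged to 1299 nearest genes, of which 1101 held a single summit. Ptpmeg2 held the most, 6, followed by Rtnl1 with 5. In all, 38 summits lay in a region whose coordinates another of them shared.

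The chromatin came from wandering larvae of the third instar, the crawling stage before pupariation, from a transgenic line that stably expresses Eyeless with an eGFP tag at its C terminus (ey-eGFP). Males and females were pooled and whole animals were used, so all tissues are mixed and binding in a small tissue cannot be separated from weak binding in many. The description names an antibody against GFP, while the antibody entry reads ey. There was 1 group with 2 libraries, biological replicates 1 and 3, prepared from separate biosamples, and no other condition, so no test between samples was possible. Intervals given with shares cover counting error over regions only, and regions are not replicates. The spread is therefore given as the value from each replicate's own list, restricted to its 6835 strongest regions. Each region carries a signal, the authors' strength value on a scale that is not stated, and ranks run from 1 for the strongest. Positions are given relative to the nearest TSS in the direction of transcription, so negative values are upstream. The lists give no read totals, which leaves library depth unknown.

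Eyeless is the fly Pax6 protein. It binds DNA through a paired domain and a homeodomain, is needed to form the eye and has roles in the brain. A promoter holds the core elements that place the start of transcription. In flies, genes used in most cells tend to carry the DNA replication-related element (DRE), which the factors Dref and BEAF-32 bind, or Motif 1, which the factor M1BP binds. Genes used in particular tissues more often carry a TATA box or an Initiator.

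The sequences shown here are examples of the motifs and of the A and T runs described below. The first 4 windows hold a strong example of each motif found at least 2 times as often at the summits as in the flanking DNA: the DRE (TATCGATA), Motif 1 (1 mismatch allowed), Motif 7 (CATCNCTA) and the palindromic homeodomain site P2. The last 4 are among the strongest summits upstream of their nearest TSS and outside all exons. They were chosen after their values were seen, and the longest run of A and T bases is in capitals. Those at ph-p, larp and gish lie within the span of their own gene, upstream of an internal TSS. Every window lies within 50 bp of its summit, upstream of the TSS, and is written 5′ to 3′ on the strand of the gene, from Release 6 of the genome. Their positions are chr3R:29220081-29220171 (eEF1gamma, + strand), chr3R:26021488-26021588 (E(spl)m3-HLH, +), chr3L:6256881-6256981 (Best2, −) and chr2L:1737211-1737311 (CG17646, +). The A and T examples lie at chr3L:19590570-19590670 (CG14100, −), chrX:2137271-2137371 (ph-p, −), chr3R:28326543-28326643 (larp, −) and chr3R:16280674-16280774 (gish, +). Capitals mark the motif match or the run.
eEF1gamma (DRE): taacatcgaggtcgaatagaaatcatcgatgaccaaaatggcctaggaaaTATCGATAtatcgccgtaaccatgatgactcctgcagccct
E(spl)m3-HLH (Motif 1): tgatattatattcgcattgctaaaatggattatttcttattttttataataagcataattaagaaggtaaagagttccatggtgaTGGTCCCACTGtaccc
Best2 (Motif 7): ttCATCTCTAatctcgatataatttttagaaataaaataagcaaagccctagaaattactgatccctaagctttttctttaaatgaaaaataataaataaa
CG17646 (homeodomain P2): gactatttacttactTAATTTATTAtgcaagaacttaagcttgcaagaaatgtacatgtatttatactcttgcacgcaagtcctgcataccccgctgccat
CG14100 (A and T run): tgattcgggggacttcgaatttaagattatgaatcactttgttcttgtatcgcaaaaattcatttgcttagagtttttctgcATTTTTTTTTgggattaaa
ph-p (A and T run): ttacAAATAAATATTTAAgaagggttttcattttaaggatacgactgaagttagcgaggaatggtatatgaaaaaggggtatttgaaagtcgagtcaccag
larp (A and T run): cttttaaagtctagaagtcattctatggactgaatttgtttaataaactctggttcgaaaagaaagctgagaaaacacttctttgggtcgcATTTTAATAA
gish (A and T run): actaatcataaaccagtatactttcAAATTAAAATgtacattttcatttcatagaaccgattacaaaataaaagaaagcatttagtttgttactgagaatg

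Of the 20 single-gene promoter summits with the highest signal, 19 were upstream of the TSS. They were chosen by the signal of the optimal list, which was made from both libraries, so their ranks in each library are a description. All 20 overlapped one of the 6835 strongest regions of each replicate, at ranks 4 to 115 in replicate 1 and 1 to 92 in replicate 3. The summit at CG14100 lay at −96 bp and ranked 8 in replicate 1 (signal 1311) and 1 in replicate 3 (signal 1934). At ph-p, which encodes a Polycomb-group protein, the summit lay at −466 bp and ranked 7 in both libraries (signals 1338 and 1406). At Sox14, the gene of an ecdysone-inducible Sox factor, it lay at −244 bp and ranked 14 and 23 (signals 1206 and 1016). These were among the strongest regions of either library.

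Gapdh2, which encodes a glycolytic enzyme, had its summit at −156 bp, at rank 25 in replicate 1 (signal 1014) and rank 92 in replicate 3 (signal 554.1). Hsp27, a small heat shock protein gene, had it at −144 bp, at ranks 34 and 70 (signals 913.7 and 634.8). Trp1, whose product takes part in protein translocation into the endoplasmic reticulum, had it at −141 bp, at ranks 39 and 24 (signals 876.7 and 1004). The first pair ranked higher in replicate 1 and Trp1 in replicate 3. Atf3, the gene of a bZIP transcription factor, ranked 82 and 42 (signals 650.5 and 821.7), and eIF6, a factor of ribosome assembly and translation, ranked 115 and 40 (signals 564.1 and 864.7). The single downstream summit of the 20 was at GstE13, a glutathione S-transferase gene, at 83 bp, with ranks 58 and 36. The rest of the 20 were at CG1888, larp, gish, CG18549, MFS10, CG43389, Fkbp14, Reg-5, CG13921, CG31145 and Hpf1.

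As a class, single-gene promoter summits were spread over the whole range of strength. Their median rank in the optimal list was 3330 (95% exact interval 3171 to 3478), against 3121 (2929 to 3321) at divergent promoters and 3545.5 (3443 to 3644) far from a TSS. The interval of the last group lies almost wholly above that of the single-gene promoters. Among the 100 strongest optimal regions 33 were at single-gene promoters, which make up 22.5% of the whole list. Divergent promoters held 23 of the 100, and 44 lay far from a TSS. Of the 1539, 360 (23.4%, interval 21.3 to 25.6) fell in the strongest quintile of the list. At divergent promoters that share was 22.1% (19.8 to 24.7), and far from a TSS it was 18.2% (17.0 to 19.4).

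The optimal list was made from both libraries, so the overlaps that follow describe the list and are no independent check of it. Of the 1539, 1376 (89.4%) overlapped one of the 6835 strongest regions of replicate 1 and 1402 (91.1%) one of replicate 3. Both held for 1248 (81.1%, interval 79.0 to 83.0), replicate 1 alone for 128, replicate 3 alone for 154 and neither for 9. The share in both was 82.5% (80.2 to 84.7) at divergent promoters and 79.0% (77.8 to 80.3) far from a TSS, so the intervals overlap. Across the 1513 summits with a region in each library, Spearman's rho of the signals was 0.807 and the Pearson correlation of log2 signals 0.854. This is a description across regions of 1 pair of libraries. The replicates' own summits lay a median of 30 bp apart, and 68.6% were within 50 bp of each other.

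**Figure D1:**
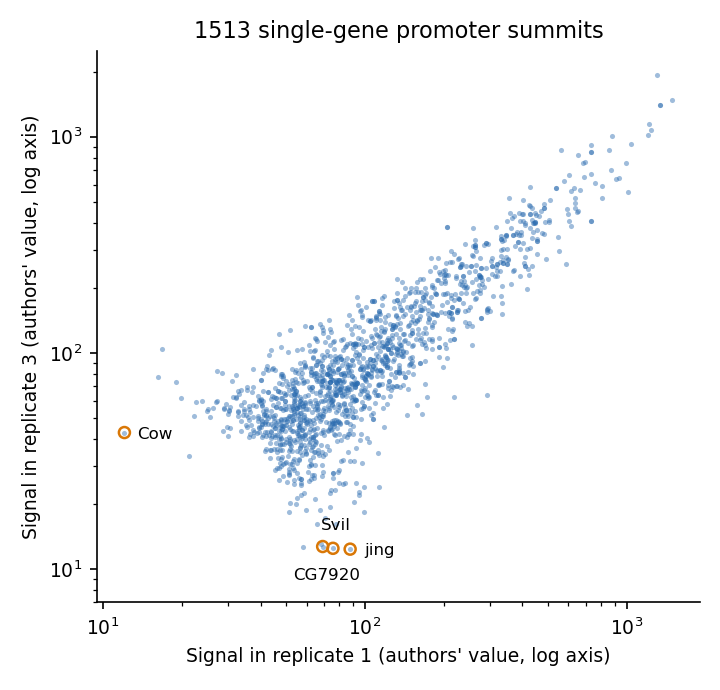
Signal in replicate 1 (x axis) against replicate 3 (y axis), both the authors' values on log axes, for the 1513 single-gene promoter summits with a region in each library. Points follow a diagonal band (Spearman's rho 0.807), and the 4 circled summits, at jing, Svil, CG7920 and Cow, have the largest rank differences.

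A few summits ranked far apart in the 2 libraries. Among the 1513 with a region in each, the largest rank difference was at jing, the gene of a zinc-finger factor, whose summit ranked 3052 in replicate 1 (signal 87.96) and 22763 in replicate 3 (signal 12.35). Svil ranked 3728 (signal 75.61) and 22529 (12.46), and CG7920 ranked 4144 (69.07) and 21931 (12.70). Cow went the other way, at rank 23272 in replicate 1 (signal 12.08) and 5943 in replicate 3 (signal 42.78). Overlap needed only 1 bp, and some matched summits lay apart. At Cow the summit was at 23112911 in the optimal list and 23113112 in replicate 1. At jing it was at 6501838 in the optimal list and 6501996 in replicate 3. Whether these matched regions are the same site was not tested. These 4 stood at ranks from 4270 to 6621 of the optimal list. In all, 20 of the 1539 had no listed region in replicate 1 and 6 had none in replicate 3. The strongest of these, named after its values were seen, was at SCOT, at rank 771 of the optimal list (signal 416). It ranked 681 in replicate 3 (signal 214) and overlapped no region listed for replicate 1.

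Summits lay upstream of the start site rather than on it. Of the 1539, 1267 (82.3%, interval 80.3 to 84.2) were upstream of their nearest TSS, and the median position was −153 bp (interval −163 to −140). The middle portion, from the 25th to the 75th percentile, ran from −270 to −42.5 bp. In the lists of replicates 1 and 3 the upstream share was 78.8% and 83.7% and the median −143 and −156 bp. Between 50 and 250 bp upstream lay 692 summits (45%), against 107 (6.95%) at the same distances downstream. Of the rest near the start, 216 (14.0%) lay within 50 bp of the TSS.

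At divergent promoters the summit lay closer to the nearest TSS, at a median of −71.5 bp (−77 to −65), although the upstream share of 79.2% (76.7 to 81.5) was alike. The distance between paired TSSs limits how far from the nearest one such a summit can lie, and the rule used that distance, so this difference is a description. The rule also fixed the outer limit. Just inside it were summits at nw and bip1, both at −498 bp, with signals of 341.3 and 234.3. Just outside were CG7720 (−501 bp, signal 153.7) and a summit on 3R in the region from 18298162 to 18298591 (502 bp, signal 129.8).

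**Figure D2:**
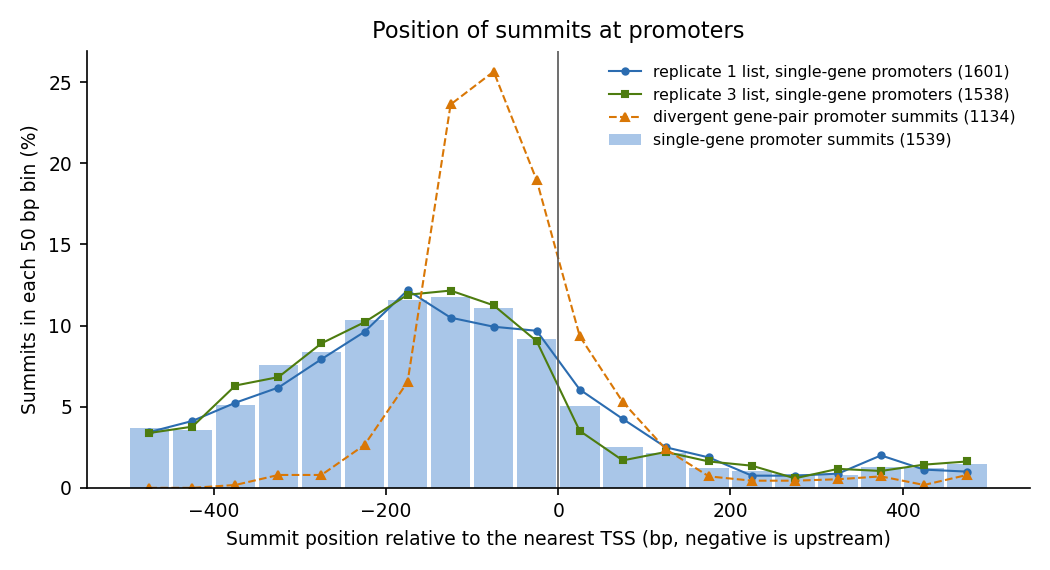
Percent of summits in each 50 bp bin (y axis) by position relative to the nearest TSS (x axis, bp, negative is upstream), as bars for the 1539 single-gene promoter summits, with lines for the lists of each replicate and for 1134 divergent promoter summits. The single-gene summits form a broad upstream mound with a median of −153 bp, the lines of the 2 libraries follow it (−143 and −156 bp), and the divergent ones a narrow peak with a median of −71.5 bp.

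Position changed with strength. When the 1539 were ordered by signal and divided into quintiles, the strongest quintile had a median position of −196 bp (−207 to −176) and the weakest −80 bp (−107 to −62). The intervals are far apart. The upstream share was 87.9% (83.8 to 91.4) in the strongest and 76.3% (71.2 to 80.9) in the weakest. The same held in each library, with medians of −196 and −62 bp in the strongest and weakest quintiles of replicate 1 and −186 and −114 bp in those of replicate 3. Region width moved with this ordering: 0.326% of the strongest quintile and 97.4% of the weakest had the width of 430 bp most common in the list, and its part in the result was not tested.

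The 267 summits downstream of the TSS differed from the 1267 upstream ones in strength. Their median rank was 3947 (3544 to 4242), against 3229 (2987 to 3380). A smaller share lay in both top-ranked lists: 70.8% (64.9 to 76.2) of the downstream summits, against 83.3% (81.1 to 85.3) of the upstream ones. Neither pair of intervals overlaps. The top-ranked lists are themselves cut by strength. Of the 793 single-gene promoter summits in the stronger part of the optimal list, 99.4% were in both. The shares therefore depend on strength, and whether they differ at equal strength was not tested.

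The DNA at the summits was rich in A and T. GC content within 50 bp of the summit averaged 36.4% ± 9.51 (SD over 1539 regions). In equally wide windows centred 300 bp away it averaged 39.8% on the upstream side and 46.9% on the side of the gene. The mean difference from both flanks was −6.95 percentage points (SD 12.6), and −6.09 and −7.08 in the lists of replicates 1 and 3. GC content was lower at the summit than in the flanks for 1090 of the 1539 (70.8%). The 4 sequences above with an A and T run are examples chosen after their values were seen. Their summit GC contents were 30.7% at CG14100, 33.7% at ph-p, 31.7% at larp and 24.8% at gish. At CG1888, ranked 5 in the optimal list and not shown, GC content was 39.6% both at the summit and in the flanks.

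Other promoters were compared at matched positions, a reference chosen after the data were seen. In promoters with no region in the pooled list of both libraries, windows at the same distances from the TSS averaged 40.1% GC, so the summits differed from them by −3.78 points. Promoters with only weaker pooled regions averaged 40.2%. The dip was smaller than at other optimal summits, where the difference from the flanks averaged −10.2 points at divergent promoters and −11.5 points far from a TSS. Runs of A and T were longer at the summits, with a median longest run of 9 bases against 7 in the flanks. The runs marked above were of 10 bases at CG14100, larp and gish and of 14 at ph-p. A run of at least 15 bases was present in 12.8% (11.2 to 14.6) of summit windows and 7.80% (6.87 to 8.80) of flank windows.

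**Figure D3:**
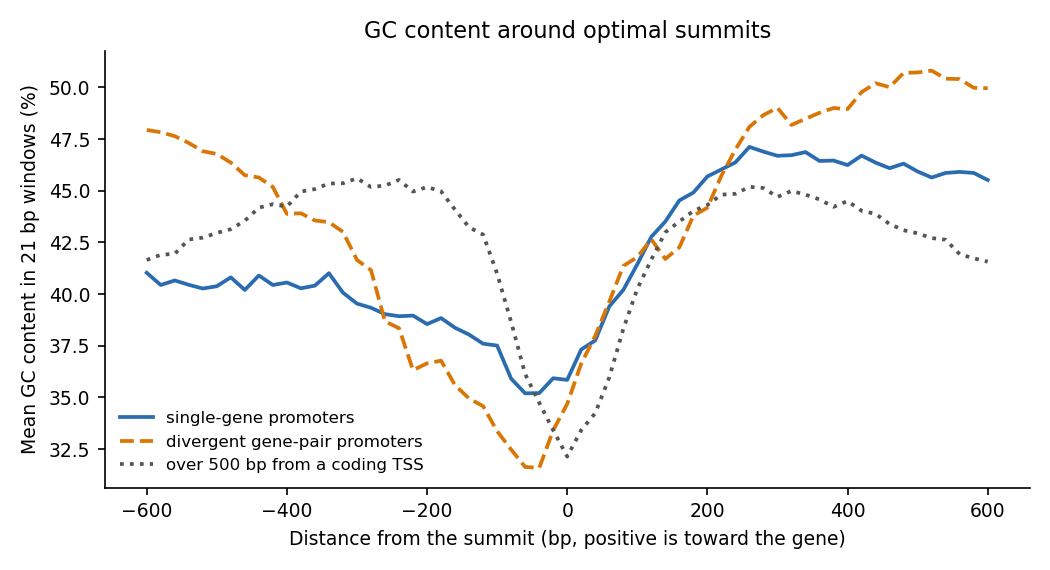
Mean GC content in 21 bp windows (y axis, percent) by distance from the summit (x axis, bp, positive toward the gene) for single-gene promoters, divergent promoters and summits farther than 500 bp from a TSS. The single-gene line dips around the summit, with its lowest value of 35.2% at 60 bp upstream of it and 35.85% at the summit itself. It is asymmetric, at 39.5% at 300 bp upstream and 46.7% at 300 bp toward the gene.

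The dip deepened with strength. It was −12.1 points in the strongest quintile of the summits, then −8.70, −6.44 and −4.82, and −2.73 in the weakest. In replicate 1 the strongest and weakest quintiles gave −12.6 and −0.290 points and in replicate 3 −10.9 and −3.87. Upstream summits had a mean difference of −7.73 points and downstream ones −3.39. Position and strength move together here, and their separate parts were not tested.

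Of 26 motifs searched on both strands, 4 were at least 2 times as frequent within 50 bp of the summits as in the flanks. That number depended on the reference and the list: it was 10 against the gene-side flank alone, 6 in the stronger 50% of the optimal list, and 4 and 2 in the lists of replicates 1 and 3. The DRE (TATCGATA) was in 32 summit windows (2.08%, interval 1.43 to 2.92) against a mean of 7 in the flanks, a ratio of 4.57, and the ratios in the lists of replicates 1 and 3 were 4 and 3.76. Motif 7 (CATCNCTA) was in 50 (3.25%, 2.42 to 4.26) against 14, a ratio of 3.57, with 2.62 and 3.48 in the replicates. Motif 1 was in 38 (2.47%, 1.75 to 3.37) against 15.5, a ratio of 2.45, with 2 and 1.71. The first pair stayed above 2 in both libraries. Homeodomain site P2 was in 17 windows against 8.5, a ratio of 2, which was 1.44 and 1.56 in the replicates. In a window from 150 to 50 bp upstream of 13945 protein-coding genes, 2.50% held the DRE, 1.33% Motif 7, 2.27% Motif 1 and 1.17% site P2. These motifs covered few regions: 125 of the 1539 (8.12%) held at least 1 of the 4. At divergent promoters the summit shares were 5.82% (4.53 to 7.3) for the DRE, 4.94% (3.75 to 6.4) for Motif 7, 3.62% for Motif 1 and 2.2% for P2. Each was higher than at single-gene promoters, though only the DRE intervals were separate. The ratios to the flanks there were 5.5, 2.435, 1.64 and 5. The motifs are therefore not particular to single-gene promoters.

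The strongest summit with a DRE was at CG1827, at rank 88 of the optimal list, followed by Alg3, eEF1gamma, RpS29 and CG7006. eEF1gamma encodes a subunit of the translation elongation factor complex, and RpS29 a ribosomal protein. The DRE in the sequence of eEF1gamma shown above starts at −41 bp. For Motif 7 the strongest were at Best2, of the bestrophin channel family, Sptr, CG14502, tin, the gene of a heart homeodomain factor, and CAP. For Motif 1 they were at E(spl)m3-HLH, the gene of a Notch-responsive repressor, CG34195, Ada2b, tst and Rnp4F. Site P2 led at brwl, chn, prtp, CG17646 and CG17129. DRE copies lay at a median of −50.5 bp, Motif 7 copies at −43.5 bp and Motif 1 copies at −32.5 bp, while P2 copies lay at −201.5 bp. In the sequences shown above, Motif 1 at E(spl)m3-HLH starts at −250 bp and Motif 7 at Best2 at −314 bp. Both lie farther upstream than the median of their motif, so they do not represent its usual place.

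Against promoters instead of flanks, the motifs separated. At the same distances from the TSS, in promoters with no pooled region, the DRE was in 0.716% of windows, Motif 1 in 0.778% and Motif 7 in 0.673%, so the summits had 2.90, 3.18 and 4.83 times those shares. In promoters with weaker pooled regions the DRE was in 2.11% and Motif 1 in 2.27%, ratios of 0.988 and 1.09. Motif 7 was in 1.05% there, below the interval of the summit share, a ratio of 3.09. Of the 3, Motif 7 was therefore the one whose share at the summits also differed from that in promoters with weaker regions. Those windows were placed by distance from the canonical TSS and not on the weaker summits, so the regions themselves were not compared. The reference windows were chosen after the flank ratios had been seen.

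**Figure D4:**
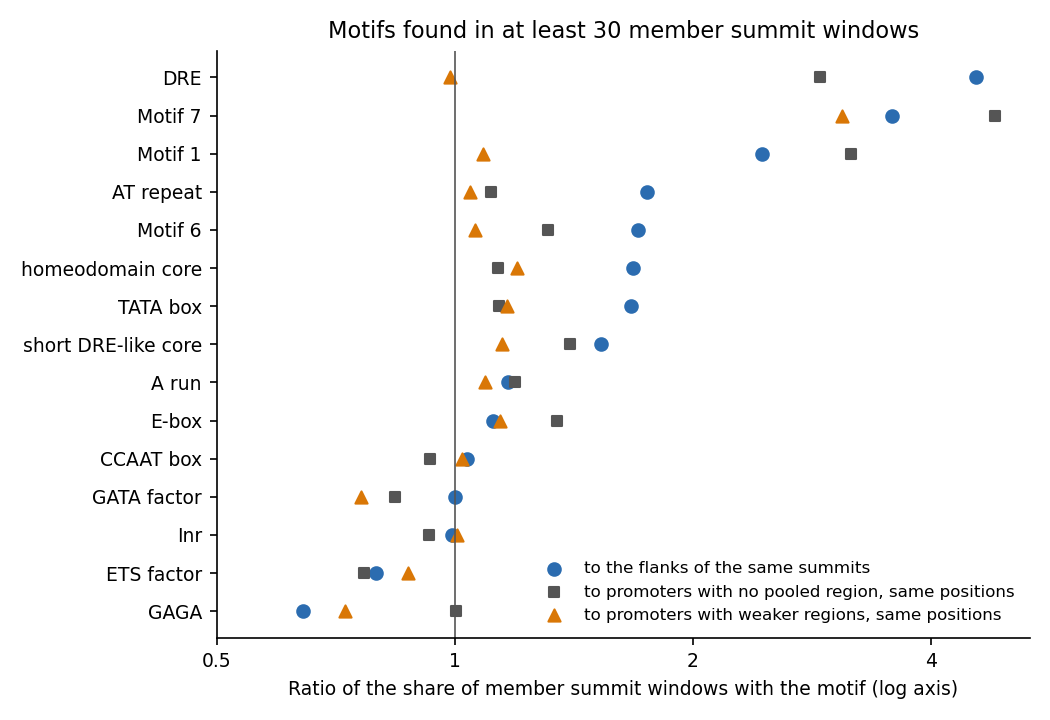
Ratio of the share of summit windows with a motif (x axis, log scale) to the share in the flanks (circles), in promoters with no pooled region (squares) and in promoters with weaker pooled regions (triangles), for motifs in at least 30 summit windows. DRE, Motif 7 and Motif 1 lead against flanks at 4.57, 3.57 and 2.45, while only Motif 7 stands far from 1 on all 3 scales.

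Paired-domain sites, which Eyeless is known to bind, were few. The Pax6 paired domain consensus was in 5 summit windows against a mean of 6.5 in the flanks, and 0.294% of all promoters held it in the window given above. The homeodomain core TAATTA was in 127 windows (8.25%, 6.93 to 9.74) against 75.5, a ratio of 1.68, with 1.39 and 1.49 in replicates 1 and 3 and 1.14 against promoters with no pooled region. It was held by 9.19% of all promoters. The hexamer TATAAA was in 288 windows against 172 (ratio 1.67) at a median of −188 bp, far from where a TATA box acts, and 17.8% of all promoters held it. Below 1 against the flanks were the CA repeat CACACACA, in 13 windows against 65.5, and GAGAG, the core of GAGA factor sites, in 176 against 274. The CA repeat and GAGAG were held by 1.79% and 13.8% of all promoters. Against promoters with no pooled region at the same distances, the ratios were 0.527 for the CA repeat, 1.004 for GAGAG and 1.14 for TATAAA. Against promoters with weaker regions they were 0.422, 0.727 and 1.17. The low ratio of GAGAG thus depended on the reference.

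The DRE, Motif 1 and Motif 7 had higher shares in the weakest quintile than in the strongest, though only for Motif 1 were the intervals separate. The DRE was in 2 of the 307 strongest and 12 of the 308 weakest summits (3.90%, interval 2.03 to 6.71). Motif 1 was in 0 of the strongest quintile, which allows a share of up to 1.19%, and in 15 of the weakest (4.87%, 2.75 to 7.90). Motif 7 was in 5 (1.63%, 0.531 to 3.76) and 19 (6.17%, 3.75 to 9.47). TATAAA went the other way, in 71 of the strongest (23.1%, 18.5 to 28.3) and 49 of the weakest (15.9%, 12.0 to 20.5). The intervals of the DRE and of TATAAA overlap, and those of Motif 7 meet at their ends. Median position also moved from −196 to −80 bp over the same quintiles, and its part in these counts was not tested.

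Core elements were next counted by their place relative to the canonical TSS, over 9168 promoters, 1 per gene. These fell into 1017 with a single-gene summit within 500 bp, 2188 with only a weaker pooled region and 5963 with none. A TATA box was in 4.03% (2.91 to 5.43) of the first, 6.86% (5.83 to 8.00) of the second and 13.1% (12.3 to 14.0) of the last, and none of these intervals overlap. The DRE was in 6.10% (4.71 to 7.75), 7.91% (6.81 to 9.12) and 2.63% (2.24 to 3.07). Motif 1 was in 6.29%, 5.99% and 2.05%. For both, promoters with any region stood apart from those with none, but optimal and weaker regions overlapped. Motif 7 was in 5.31% (4.01 to 6.87), 3.11% (2.42 to 3.92) and 1.58% (1.28 to 1.93), again separate in all 3.

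Read the other way, 25% of the 216 promoters with Motif 7 held a single-gene summit (interval 19.4 to 31.3), against 10.8% of those without it. For Motif 1 the shares were 20.2% (15.9 to 25) and 10.8%, and for the DRE 15.8% (12.4 to 19.8) and 10.9%. For the TATA box they were 4.21% (3.03 to 5.66) and 11.9%. GAGA sites were at 31.8% of promoters with a summit, 32.9% with weaker regions and 22.6% with none. The Initiator, which marks focused start sites, was at 13.5%, 15.2% and 11.1%. GC content over 250 bp upstream was nearly level, at 39.2%, 40.2% and 39.3%.

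Single-gene promoter summits were called at 1339 of the 9655 eligible genes, those with at least 1 TSS outside any head-to-head pair, which is 13.9%. The lists of replicates 1 and 3 gave 1356 and 1353 genes, 14.0% each. The interval of the cytosolic ribosomal protein genes lay above that share: 19 of 42 (45.2%, interval 29.9 to 61.3) held a summit, and 17 in each library's own list. The strongest were at RpL23A (−94 bp, ranks 2076 and 918 in replicates 1 and 3), RpS29 (−7 bp, ranks 1648 and 1907), RpS4 (−31 bp, 2742 and 1447) and RpL11 (−75 bp, 1501 and 3588). None of these was among the 20 strongest summits. All the gene lists were drawn up with earlier results of these data known, so they describe and do not test.

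For the other lists of genes used in most cells the intervals all include 13.9%. Summits were at 5 of 26 translation initiation factor genes, led by eIF6, eIF2A, eIF2D and eIF4E1. Proteasome genes held them at 4 of 26 (Rpn12, Prosalpha2, Rpn11 and Rpn10) and vacuolar ATPase genes at 3 of 20 (Vha16-1, Vha68-2 and VhaM9.7-c). Genes of oxidative phosphorylation held them at 3 of 45 (ND-B22, SdhD and ND-B17). Mitochondrial ribosomal proteins (mRpL9) held 1 of 15, aminoacyl-tRNA synthetases (AlaRS) 1 of 11, general transcription genes (Polr2F and TfIIA-S) 2 of 14 and replication genes (PolA1) 1 of 9.

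Genes of the ecdysone response, the steroid program that drives wandering larvae into metamorphosis, held summits at 7 of 18 (38.9%, 17.3 to 64.2), with 8 and 10 in the lists of replicates 1 and 3. Sox14 was the strongest. Eip63F-1, which encodes a calcium-binding protein, followed (464 bp, ranks 262 and 243). Then came Eip75B, the gene of a nuclear receptor (59 bp, ranks 182 and 372), and Eip74EF, the gene of an ETS factor (−240 bp, ranks 1680 and 1693). Of 6 eligible genes for promoter architecture proteins 4 held a summit (interval 22.3 to 95.7). They were Trl, which encodes GAGA factor (125 bp), BEAF-32 (−49 bp), CTCF (54 bp) and pita (89 bp).

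Among lists of genes with restricted use, the intervals of the chemoreceptor, cuticle and odorant binding lists lay below 13.9%. That 13.9% covers genes of all lengths. By gene length the share ran from 3.88% in the shortest quintile to 25% in the longest. Length was not matched for any of the gene lists, so its part in their shares was not tested. None of 154 chemoreceptor genes held a summit (interval up to 2.37%) and none of 19 digestive serine protease genes (up to 17.6%). Cuticle protein genes held 1 of 67 (Cpr12A, 1.49%, interval 0.0378 to 8.04) and odorant binding protein genes 1 of 41 (Obp83g). With a TSS window of 1000 bp the cuticle share was 8.96%, and it was 0 and 2.99% in the lists of replicates 1 and 3. Cytochrome P450 genes held 5 of 76 (6.58%, 2.17 to 14.7), led by Cyp6u1, Cyp6a2, Cyp6v1 and Cyp317a1. Of the list of synaptic and neuronal genes 1 of 17 held a summit. This was elav (−268 bp, ranks 148 and 191), which encodes a neuronal RNA-binding protein and no synaptic protein. The digestive protease, P450 and neuronal intervals include 13.9%.

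Retinal determination genes, the eye network in which Eyeless acts, held summits at 2 of 14 (14.3%, 1.78 to 42.8). These were at so, which encodes the homeodomain factor Sine oculis (−247 bp, signal 102.8, ranks 8373 and 3700), and at dac, the gene of Dachshund (11 bp, signal 80.58, ranks 7038 and 7095). Both were weak, and dac stood near the end of the optimal list at rank 6722. The lists of replicates 1 and 3 gave 0 and 1 of the 14. The interval includes the 13.9% of all eligible genes.

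**Figure D5:**
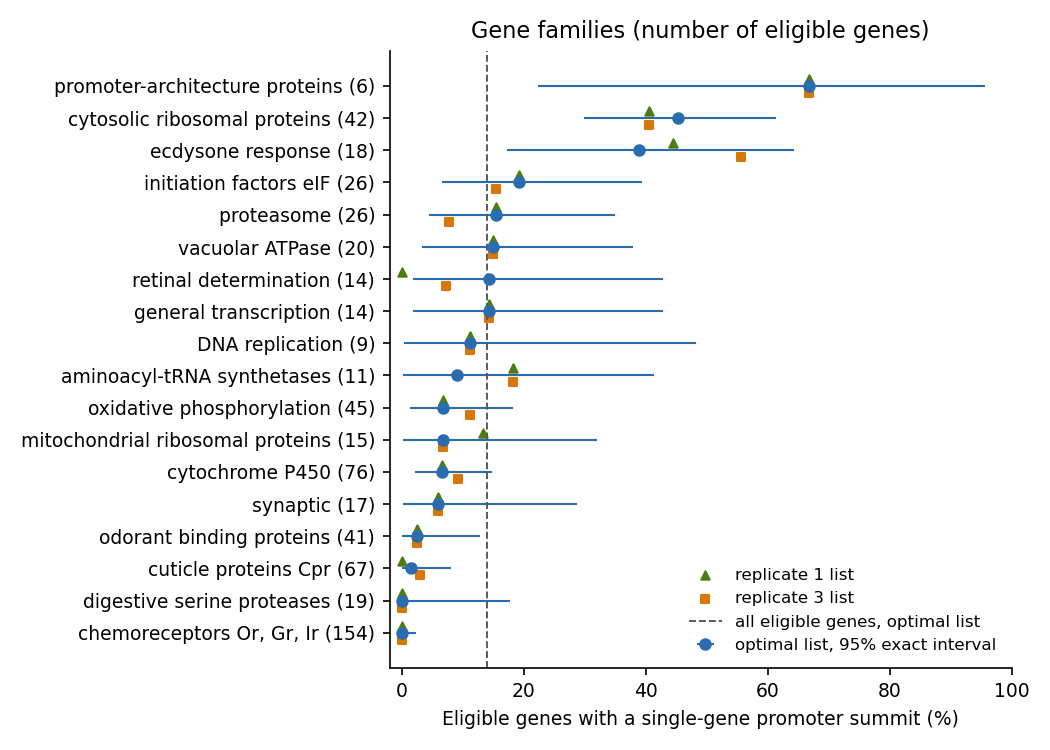
Percent of eligible genes with a single-gene promoter summit (x axis) for 18 gene lists (number of eligible genes in brackets), with 95% exact intervals for the optimal list and points for each replicate's list. The dashed line is the 13.9% of all eligible genes, and ribosomal protein genes at 45.2% lie above it while chemoreceptor genes lie at 0.

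Genes with a summit were long. Their median length was 5353 bp (4870 to 5879), against 2071.5 bp (2011 to 2132) for eligible genes without one. By quintiles of gene length, from the shortest, 3.88%, 9.06%, 11.6%, 19.8% and 25% held a summit. A gene counted when any of its TSSs lay within 500 bp of a summit, so genes with more TSSs had more places to be counted. The part of TSS number in the length trend was not tested. Of the 1704 eligible genes whose TSSs span over 1000 bp, 522 held a summit (30.6%, 28.4 to 32.9), against 817 of the other 7951 (10.3%, 9.62 to 11.0). In the 1222 of the former with a start outside head-to-head pairs at or near the TSS farthest upstream, that site held a summit in 225 (18.4%, 16.3 to 20.7). Internal TSS clusters of the 1704 genes held one in 431 of 2704 (15.9%, 14.6 to 17.4).

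The share of eligible genes with a summit was highest on X, at 15.9% (14.1 to 17.8), an interval just above the 13.9% of all eligible genes. On X the libraries gave 15.8% (replicate 1) and 17.4% (replicate 3). On the arms of chromosomes 2 and 3 the share lay between 13.1% and 14.0%, and those intervals include 13.9%. On chromosome 4, where the ey gene lies, 8 of 66 eligible genes held one (12.1%, 5.38 to 22.5).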

How the data were processed

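The authors deposited lists of called regions per replicate, for the pooled replicates, and an irreproducible discovery rate (IDR) list termed optimal, per the file headers and labels. IDR weighs how well the rank of a region repeats. How the optimal list was formed is not stated, and some of its regions overlapped no region listed for replicate 1 or for replicate 3. The dm6 lists were used. The dm3 lists were not used here. The deposited signal is the authors' own strength value and the deposited summit offset is another value, a position in bases. Aligner, caller and IDR threshold: not given in the sources used here. The control alignment was not analysed. No read totals are given, so the precision set by depth is unknown.

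Summits were placed on gene models of Ensembl release 115 (BDGP 6.54), with sequence of genome Release 6, in Python 3.11.15 with SciPy 1.17.1. Shares carry exact Clopper-Pearson 95% intervals and medians exact order-statistic intervals. Replicate overlap needed 1 bp. Motif windows reached 50 bp to either side of the summit, with flanks centred 300 bp away. A TATA box had to start 45 to 20 bp upstream of the TSS, and the DRE, Motif 1, Motif 7 and GAGA sites were searched in the core counts from 200 bp upstream. With 1 group of 2 libraries there was no test and no p-value. The functions were checked on made-up genes with known answers.

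The members and lists were chosen with earlier results of these data known. Named genes were the 20 strongest summits, up to 4 strongest per list, the 4 largest rank differences, those next to the 500 bp limit, and the strongest with each leading motif. The symbols Mes-4 and Eip71CD had no match.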

Additional observations from a re-analysis of the deposited data

How the results depend on the processing

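Over 153 recomputed values for 56 results, 122 stayed inside the main interval or within 1.5 times the main count, and 31 moved outside. Only the median distance and the GC difference could change sign, and both stayed negative throughout. No paired analysis was possible because the libraries form 1 group. The replicates' own lists gave upstream shares of 78.8% and 83.7% and GC differences of −6.09 and −7.08 points. They gave 4 leading motifs (replicate 1, with the AP-1 site in place of P2) and 2 (replicate 3) against 4. Cuticle shares ran from 0 to 2.99% and retinal determination shares from 0 to 7.14%. The stronger 50% of the list gave 793 summits, 85.5% upstream, a median of −179 bp, 99.4% in both top lists, median rank 1564, a GC difference of −9.66 points and 7.54% of eligible genes. A TSS window of 250 bp gave 1023 summits, a median of −104 bp, −4.94 points and 10.1% of genes. A window of 1000 bp gave 75.3% upstream, −163.5 bp, 16.6% of genes, 8.96% of cuticle genes and 0% of aminoacyl-tRNA synthetase genes. Head-to-head pairs limited to 500 bp gave 15.1% of genes. With 1 canonical TSS per gene the median was −139 bp and the share of genes 12.2%, and with distances to the canonical TSS of the assigned gene the median was −137.5 bp. Requiring overlap of 50% of both lengths left 60.5% in both top lists. Windows reaching 100 bp gave a GC difference of −5.94 points, the gene-side flank −10.5 points and 10 leading motifs, the upstream flank −3.39 points, and promoters with no pooled region, a reference added after seeing the data, −3.78 points. Core element shares from the TSS farthest upstream stayed within their intervals. Unknown depth limits all counts of weak regions.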
